A study of Mus musculus with 12 samples.

Results

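Wnt ligands, their receptors and their inhibitors were followed in RNA sequenced from lymphatic endothelial cells (LECs) of the mouse lung. The genes were chosen by symbol and matched to the Ensembl identifiers of the count files through GENCODE M21, which gave 50 of 52636 gene rows. They comprised 17 Wnt ligands, 10 Frizzled receptors, 5 co-receptors (Lrp5, Lrp6, Ror1, Ror2 and Ryk), 5 R-spondins or Lgr receptors, 9 inhibitors and 4 feedback genes or transcription factors of the pathway (Axin2, Lef1, Tcf7 and Nkd1), called targets here. LECs had been sorted from Prox1-EGFP mice of both sexes, in which regulatory sequence of Prox1, the master transcription factor of lymphatic identity, drives EGFP. The gate kept cells positive for GFP and the endothelial antigen CD31 and negative for the epithelial antigen EpCAM and a cocktail of blood lineage markers. All mice carried the reporter, and exposure to cigarette smoke (CS) or room air (RA) began at 6 weeks of age in a whole-body system. Acute exposure lasted 8 weeks (acute RA F and M, acute CS F and M) and chronic exposure 24 weeks or more (chronic RA F, M1 and M2, chronic CS F and M1 to M4), where F and M are female and male in the labels. The labels call 8 weeks an age and the chronic mice aged. Cells of 2 to 5 mice were pooled in an acute library, while chronic samples were not pooled, so that pooling and length of exposure cannot be told apart. The comparisons ask how smoke changed the genes at each time, whether both effects differed, and how the room air groups differed from each other.

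Wnt proteins are secreted lipid-modified ligands that bind a Frizzled receptor together with Lrp5 or Lrp6. In the canonical branch this stops the breakdown of beta-catenin, which then enters the nucleus and acts with the TCF and LEF transcription factors. R-spondins, through Lgr receptors, keep the ubiquitin ligases Znrf3 and Rnf43 from removing Frizzled from the cell surface. Dkk1 and some of its relatives act on Lrp5 and Lrp6, whereas Sfrp proteins, Frzb and Wif1 bind Wnt ligands outside the cell. Ror1, Ror2 and Ryk serve branches that do not need beta-catenin. In the lung, Wnt2 is known from lung specification and from mesenchyme, and beta-catenin signalling takes part in the formation of lymphatic valves.

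Depth ranged from 18821438 to 56998590 counts per library, with chronic CS F, M1 and M2 the shallowest. A count of 3, used as the floor of detection, was worth between 0.0526 and 0.159 CPM by library (counts scaled to a common library size), and covers counting error only, since the reads carry no molecular identifiers. Chronic CS M2 stood apart, with 18.3% of tested genes at 0 and 22 of the 50 Wnt genes at 0, against 6 to 16 in the other libraries. The label of the cells was checked against their markers, and 7 markers of lymphatic endothelium (Prox1, Flt4, Lyve1, Pdpn, Mmrn1, Reln and Thy1) summed to between 13628 and 21390 CPM in the room air libraries. The same sum was 5952 CPM in acute CS F and 9159 CPM in acute CS M, where Prox1 itself was counted at 1042 and 1262 CPM against 2239 and 2476 CPM in acute RA. In both acute CS libraries 6 of the 7 lay below acute RA, and Lyve1 lay above it, at 568 and 986 CPM in F and M against 443 and 536 CPM. In acute CS F the sum of 12 markers of blood endothelium, 11159 CPM, exceeded the lymphatic sum. Markers of other cell types were present in every group, and their sums are given beside the results that they moved with. In bulk RNA, fewer cells of a type and less RNA per cell cannot be told apart.

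Upstream sequence is shown for 3 genes: Wnt2 and Fzd7, whose counts moved in opposite directions after acute CS, and Lef1, a gene that encodes a partner of beta-catenin. The sequences are from RefSeq promoter windows on GRCm38.p6, which hold 250 bases before a transcript start and 50 after it, and are written 5′ to 3′ on the strand of the gene. Capitals mark the letters TCAAAG or CTTTGA, the core of the motif that TCF and LEF proteins are known to bind, read on either strand. Of Wnt2 only the 110 bases outside its first GENCODE exon are shown (chr6:18030586-18030695, minus strand). Fzd7 is shown for chr1:59481897-59482146 and Lef1 for chr3:131156044-131156293, both on the plus strand, the latter before a start inside an intron of the gene.
Wnt2: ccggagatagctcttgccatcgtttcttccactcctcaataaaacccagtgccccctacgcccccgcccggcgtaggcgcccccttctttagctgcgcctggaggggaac
Fzd7: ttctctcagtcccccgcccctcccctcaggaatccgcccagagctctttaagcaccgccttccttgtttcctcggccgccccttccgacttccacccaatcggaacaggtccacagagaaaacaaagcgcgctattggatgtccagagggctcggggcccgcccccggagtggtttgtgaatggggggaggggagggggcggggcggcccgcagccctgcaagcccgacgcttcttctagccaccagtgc
Lef1: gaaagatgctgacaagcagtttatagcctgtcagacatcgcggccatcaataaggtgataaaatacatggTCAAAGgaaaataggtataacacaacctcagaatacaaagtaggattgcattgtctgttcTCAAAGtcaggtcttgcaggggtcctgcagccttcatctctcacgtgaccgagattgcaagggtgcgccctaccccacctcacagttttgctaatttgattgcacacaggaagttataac

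Lef1 has 4 windows, and the intronic one is shown because it alone held the core, at positions -180 and -120 from its start. The windows of Wnt2 and Fzd7 held none. Windows were found for 35 of the 50 Wnt genes, and 7 of them (Wnt5b, Wnt11, Fzd1, Frzb, Ror1, Dkk1 and Lef1) held at least 1 core. This was 7 of 43 windows (16.3%), while 16.0% of all 32851 windows held it. The windows of Axin2, Nkd1, Tcf7 and Fzd10 held no core, which says only that these letters are not in the window. The 250 upstream bases of Wnt2 and Fzd7 were 63.6% and 65.2% G or C, with 20 and 17 CpG dinucleotides. The shown Lef1 window had 44.8% and 5, its other windows had 50.8% to 66.4% and 6 to 14, and the medians over all windows were 52.4% and 6.

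In room air the LECs expressed a small set of the Wnt genes at a high level. Levels are compared between genes as FPKM, which are CPM divided by the exon length of the gene in kilobases, as the mean ± SD of the 5 room air libraries. These are 2 acute RA and 3 chronic RA libraries, so that the SD also holds differences between these groups. Wnt9a, for one, had a mean of 6.68 FPKM in acute RA and 14.5 FPKM in chronic RA. Fzd4, the receptor of Wnt ligands and of Norrin in blood vessels, had the highest level at 41.1 ± 6.04 FPKM (SD, n = 5), followed by Wnt2 at 29.9 ± 6.40 FPKM (SD, n = 5) and Fzd6 at 20.5 ± 1.66 FPKM (SD, n = 5). Rspo3, an R-spondin known from vessel growth, reached 18.0 ± 4.20 FPKM (SD, n = 5), and Nkd1, an intracellular feedback inhibitor, 16.0 ± 3.04 FPKM (SD, n = 5). The level of Fzd4 exceeded that of 93.8% of tested genes. Wnt9a at 11.4 ± 4.59 FPKM (SD, n = 5) was the second ligand. The third ligand, Wnt5b, had 0.663 ± 0.535 FPKM (SD, n = 5) and 0 counts in acute RA F.

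Receptors were more widely expressed than ligands. A mean of at least 10 CPM in room air was reached by 15 genes, of which 6 were Frizzled receptors, 3 co-receptors and 2 ligands. After Fzd4 and Fzd6 came Fzd9 at 7.70 ± 3.45 FPKM (SD, n = 5). Among co-receptors Ryk had 8.90 ± 2.87, Lrp6 3.16 ± 0.712 and Lrp5 3.03 ± 1.14 FPKM (SD, n = 5 each), so that the beta-catenin co-receptors lay at about the same level. The Lgr receptors of R-spondins were lower than Rspo3, with 1.08 ± 0.609 FPKM for Lgr4 and 0.839 ± 0.208 FPKM for Lgr5 (SD, n = 5 each). The secreted inhibitors with the highest levels were Wif1 at 4.73 ± 2.42 and Dkk3 at 4.21 ± 1.48 FPKM (SD, n = 5 each), ahead of Frzb at 1.15 ± 0.736 and Sfrp1 at 0.412 ± 0.340 FPKM (SD, n = 5 each). Tcf7 was counted at 2.34 ± 0.614, Axin2 at 0.244 ± 0.0514 and Lef1 at 0.165 ± 0.126 FPKM (SD, n = 5 each).

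The order of the levels was not sharp. Among the 15 genes above 10 CPM, the ranges over the 5 room air libraries overlapped for all 14 pairs of neighbours in the order. Fzd6 varied least of the 15, with the highest library 1.25 times the lowest, and Wif1 most, with a ratio of 4.07. At the other end, 18 genes had a room air mean under 1 CPM, 10 of them ligands. Wnt3, Wnt7b, Wnt1 and Dkk1 had no count in any room air library, and Wnt1 had none in any of the 12. A filter on low counts left 45 of the 50 genes for testing, of which 13 of 17 were ligands and 8 of 9 inhibitors, with every Frizzled, co-receptor, R-spondin, Lgr receptor and target among them. Wnt1, Wnt3, Wnt10a, Wnt16 and Dkk1 did not pass it, and the highest value among these 5 genes was 0.735 CPM, of Wnt16 in chronic CS F. Parts of the exons of Fzd5 (17.8%), Sfrp2 (16.1%), Lef1 (13.7%), Rspo3 (13.1%) and 5 other genes overlap an antisense gene in GENCODE M21. Their reads cannot be told apart where the counting does not use strand, which the sources used here do not give.

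**Figure D1:**
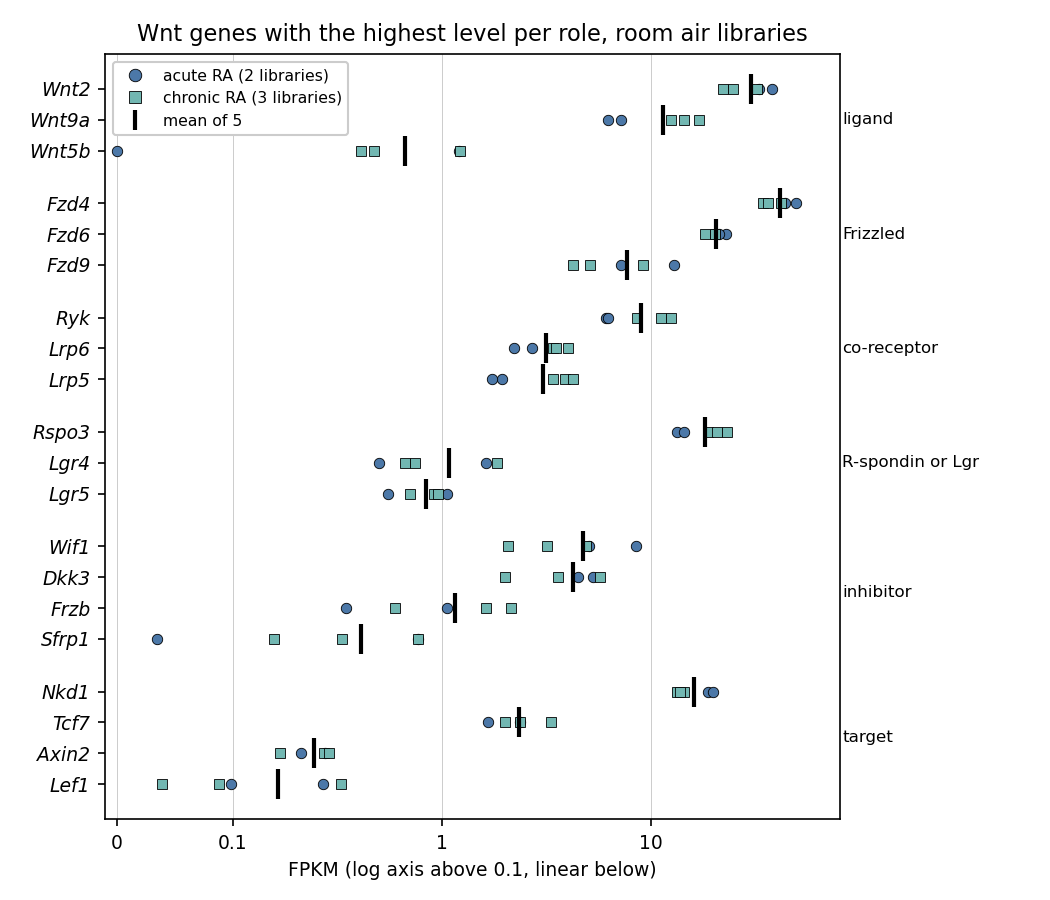
FPKM of the Wnt genes with the highest level in each role, by room air library. Each point is 1 library (circles acute RA, squares chronic RA), the black bar is the mean of 5, and the axis is logarithmic above 0.1 FPKM and linear below. Fzd4, Wnt2, Fzd6, Rspo3 and Nkd1 lie above 10 FPKM in all 5 libraries, while Wnt5b, Sfrp1, Axin2 and Lef1 have means under 1 FPKM.

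Summed over each role, the level of ligands was lower and that of inhibitors higher in acute CS, while that of Frizzled receptors moved little. The ligands summed to 42.2 and 46.9 FPKM in acute RA F and M, and to 18.9 and 21.9 FPKM in acute CS F and M. Wnt2 made up 77.4% and 80.7% of these sums in acute RA and 46.2% and 51.6% in acute CS. The Frizzled receptors summed to 94.3 and 94.5 FPKM in acute RA F and M, and to 88.6 and 88.4 FPKM in acute CS F and M. Fzd4 made up between 46.1% and 56.0% of these sums, and the 2 libraries of a group were close to each other. The inhibitors summed to 13.1 and 15.3 FPKM in acute RA F and M, and to 158 and 90.2 FPKM in acute CS F and M. Wif1 made up 90.7% and 82.4% of the latter sums. The targets summed to 21.4 and 21.9 FPKM in acute RA F and M, and to 75.9 and 39.1 FPKM in acute CS F and M. R-spondins and Lgr receptors summed to 16.6 and 15.9 FPKM in acute RA F and M, and to 8.60 and 14.4 FPKM in acute CS F and M. For co-receptors the sums were 11.1 and 10.1 FPKM in acute RA F and M, and 12.3 and 10.1 FPKM in acute CS F and M. In the chronic groups the sums of ligands overlapped, at 38.4 to 52.6 FPKM in the 3 RA libraries and 30.0 to 45.2 FPKM in the 5 CS libraries. The sums are descriptions and were not tested.

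**Figure D2:**
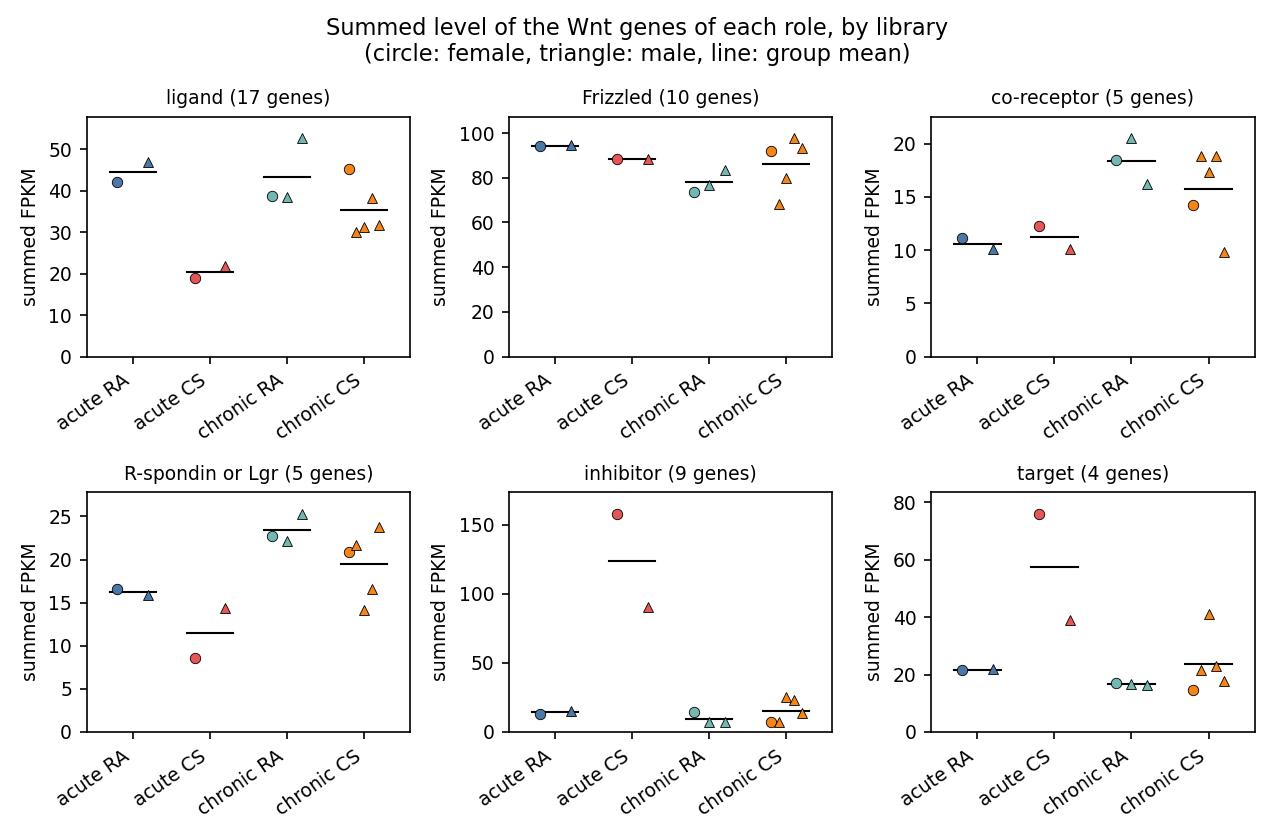
Summed FPKM of the Wnt genes of each role in each of the 12 libraries, by group. Points are libraries (circles female, triangles male) and lines are group means. The ligand sums of acute CS (18.9 and 21.9 FPKM) lie below those of all other libraries, and the inhibitor sums (158 and 90.2 FPKM) above them.

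After acute CS, Wnt2 and the receptor gene Fzd10 fell and the receptor gene Fzd7 rose. These 3 of 45 tested Wnt genes reached an adjusted p under 0.05 in edgeR's quasi-likelihood F-test (Benjamini-Hochberg adjustment over all tested genes), where 3.47% of all 21440 tested genes did. Fzd7 was the 1 gene that passed as higher, against a background of 2.75%, and Wnt2 and Fzd10 were the 2 that passed as lower, against 0.723%. At an unadjusted p under 0.05 there were 11 Wnt genes (24.4%), against 15.7% of all tested genes. Of these, 8 were higher and 3 lower, with backgrounds of 10.7% and 5.0%. For 30 of the 45 Wnt genes (66.7%) both CS libraries lay on the same side of both RA libraries, against 49.9% of all tested genes. The median log2 fold change was 0.86 over the Wnt genes and 0.04 over all tested genes. It stood at 0.86 as well with genes that had no count in a group set to their bound, and at 0.48 over the 37 Wnt genes with a mean of at least 1 CPM. By role, the log2 fold change was above 0 for 10 of 13 ligands (median 1.43), 6 of 10 Frizzled receptors (0.06), 4 of 5 co-receptors (0.63), 1 of 5 R-spondins and Lgr receptors (-0.63), 8 of 8 inhibitors (1.19) and 4 of 4 targets (1.86). The median of the ligands stood above 0 while their summed FPKM, which Wnt2 led, was lower in acute CS.

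Wnt2 (ENSMUSG00000010797, chromosome 6 of GRCm38, 17988940 to 18030585) was counted at 73.6 and 85.4 CPM in acute RA F and M, and at 19.7 and 25.4 CPM in acute CS F and M. Both CS libraries lay below both RA libraries, and also below the lowest of the 8 chronic libraries, at 38.5 CPM. The log2 fold change was -1.82 (SE 0.32), and edgeR's quasi-likelihood F-test gave an adjusted p = 0.0122 (Benjamini-Hochberg). Since Prox1 was lower in the same libraries, Wnt2 was also related to it. There were 3.29 and 3.45 counts of Wnt2 per 100 counts of Prox1 in acute RA F and M, and 1.90 and 2.01 in acute CS F and M. The groups did not overlap on this scale either.

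Fzd10 (chromosome 5, 128600844 to 128604093) was counted at 21.7 and 30.6 CPM in acute RA F and M, and at 5.20 and 10.7 CPM in acute CS F and M. It fell by 1.72 on the log2 scale (SE 0.41, adjusted p = 0.0468 with edgeR). Per 100 counts of Prox1 it was counted at 0.971 and 1.24 in acute RA F and M, and at 0.499 and 0.847 in acute CS F and M, so that the groups stayed apart. Fzd7 (chromosome 1, 59482424 to 59486955), a receptor known from stem and progenitor cells, was counted at 1.39 and 1.06 CPM in acute RA F and M, and at 11.7 and 6.77 CPM in acute CS F and M. Its log2 fold change was 2.92 (SE 0.71, adjusted p = 0.0473 with edgeR). The other 8 Frizzled genes did not pass. For Fzd4, the most abundant, the log2 fold change was 0.03 with a 95% confidence interval from -0.45 to 0.52, and for Fzd6 it was 0.08 with an interval from -1.04 to 1.20.

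All 3 calls rested on few libraries. Without acute RA F, acute RA M or acute CS F, 0 Wnt genes passed, and without acute CS M Wnt2 and Fzd10 passed. Without acute CS F the log2 fold changes were -1.64 for Wnt2 (edgeR adjusted p = 0.119), -1.29 for Fzd10 (0.343) and 2.47 for Fzd7 (0.260), and 4 Wnt genes had an unadjusted p under 0.05. Without acute RA F the adjusted p was 0.0664 for Wnt2, 0.131 for Fzd10 and 0.245 for Fzd7, and without acute RA M it was 0.108, 0.290 and 0.344. With only the acute libraries in the fit, it was 0.0535, 0.144 and 0.0941. With 2 libraries a group, the exact two-sided permutation test of a single gene gave p = 0.333, the smallest it allows, for each of the 3.

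The 4 targets were counted higher in both acute CS libraries than in both acute RA libraries, where the groups did not overlap for 49.9% of all tested genes. In edgeR 0 of them passed the adjusted limit and 3 had an unadjusted p under 0.05, against 15.7% of all tested genes, while Tcf7 and Nkd1 passed in DESeq2. The 4 tested genes of a further list of targets went less one way, with 1 log2 fold change above 0 and 3 below it (median -0.14), 1 in each direction at an unadjusted p under 0.05. Tcf7 (chromosome 11, 52252371 to 52283014), a TCF factor that is itself activated by the pathway and is strongly expressed by T cells, was closest. It was counted at 6.18 and 4.37 CPM in acute RA F and M, and at 39.4 and 21.6 CPM in acute CS F and M. The log2 fold change was 2.53 (SE 0.63, adjusted p = 0.0531 with edgeR), and the adjusted p was 0.0288 in edgeR without the filter on low counts and 0.000917 in DESeq2. Nkd1 was counted at 85.2 and 90.1 CPM in acute RA F and M, and at 267 and 131 CPM in acute CS F and M, with a log2 fold change of 1.18 (edgeR adjusted p = 0.173). Over 11 alternative fits its log2 fold change ran from 0.58 to 1.61. Axin2, the feedback scaffold that is widely read as a sign of canonical signalling, was low, at 1.52 and 1.17 CPM in acute RA F and M, and at 3.30 and 2.62 CPM in acute CS F and M (log2 fold change 1.13, adjusted p = 0.301 with edgeR). Lef1 was counted at 0.862 and 2.36 CPM in acute RA F and M, and at 14.4 and 14.5 CPM in acute CS F and M. Its standard error of 1.59 was large beside its log2 fold change of 3.16, and its adjusted p was 0.383 in edgeR.

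Among inhibitors, all 8 tested genes had a log2 fold change above 0, and 0 passed in edgeR or DESeq2, with 1 (12.5%) at an unadjusted p under 0.05 in edgeR, against 15.7% of all tested genes. Wif1 (chromosome 10, 121033960 to 121100650) had the largest values. It was counted at 12.2 and 20.5 CPM in acute RA F and M, and at 349 and 180 CPM in acute CS F and M. The log2 fold change was 4.02 with a standard error of 1.68 (edgeR adjusted p = 0.270), and within chronic CS Wif1 varied between 0 and 45.3 CPM. Of the co-receptors, Lrp6 was counted at 37.0 and 30.2 CPM in acute RA F and M, and at 62.2 and 41.5 CPM in acute CS F and M (log2 fold change 0.63, adjusted p = 0.225 with edgeR). Lgr5, an R-spondin receptor known as a stem cell marker, was counted at 5.64 and 10.9 CPM in acute RA F and M, and at 2.91 and 2.73 CPM in acute CS F and M (log2 fold change -1.55, adjusted p = 0.211 with edgeR). Both of these groups were apart without passing the adjusted limit. For Lgr5 the groups held 911 and 274 counts, and per 100 counts of Prox1 they overlapped, at 0.252 and 0.441 in acute RA F and M and 0.279 and 0.217 in acute CS F and M.

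The ligands Wnt7a and Wnt7b, the latter known from lung epithelium, had no count in acute RA. Wnt7a was counted at 1.73 and 0.0868 CPM in acute CS F and M, and Wnt7b at 0.687 and 0.0217 CPM. Against a floor of 3 counts over both RA libraries, their mean was at least 32.9-fold and at least 12.9-fold higher in acute CS, although acute CS F held 88 of the 92 counts of Wnt7a and 35 of the 36 counts of Wnt7b. Without acute CS F the bound for Wnt7a was at least 3.14-fold, from 4 counts, and for Wnt7b 1 count remained, which gives no bound. Their adjusted p-values were 0.307 and 0.310 in edgeR. The remaining ligands did not reach an unadjusted p of 0.05, with Wnt9a at 23.8 and 20.7 CPM in acute RA F and M and at 14.4 and 20.7 CPM in acute CS F and M.

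Other genes that led their role in room air did not reach an unadjusted p of 0.05. Rspo3 was counted at 41.0 and 44.2 CPM in acute RA F and M, and at 19.7 and 38.0 CPM in acute CS F and M, with a log2 fold change of -0.56 and a 95% confidence interval from -1.20 to 0.07. Ryk, a receptor of non-canonical Wnt signals, was counted at 27.6 and 28.1 CPM in acute RA F and M, and at 15.0 and 24.7 CPM in acute CS F and M (interval -1.48 to 0.51). Fzd9 was counted at 16.4 and 29.5 CPM in acute RA F and M, and at 5.65 and 13.9 CPM in acute CS F and M (interval -2.48 to 0.02). For all 3 genes acute CS F was the lowest of the 4 acute libraries. Dkk3 lay the other way, at 17.8 and 15.1 CPM in acute RA F and M and at 32.1 and 24.9 CPM in acute CS F and M (interval -0.25 to 1.84). Each of these intervals includes 0. Sfrp1 was counted at 3.35 and 0.151 CPM in acute RA F and M, and at 7.66 and 16.4 CPM in acute CS F and M, with a log2 fold change of 2.78 and a standard error of 2.03.

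**Figure D3:**
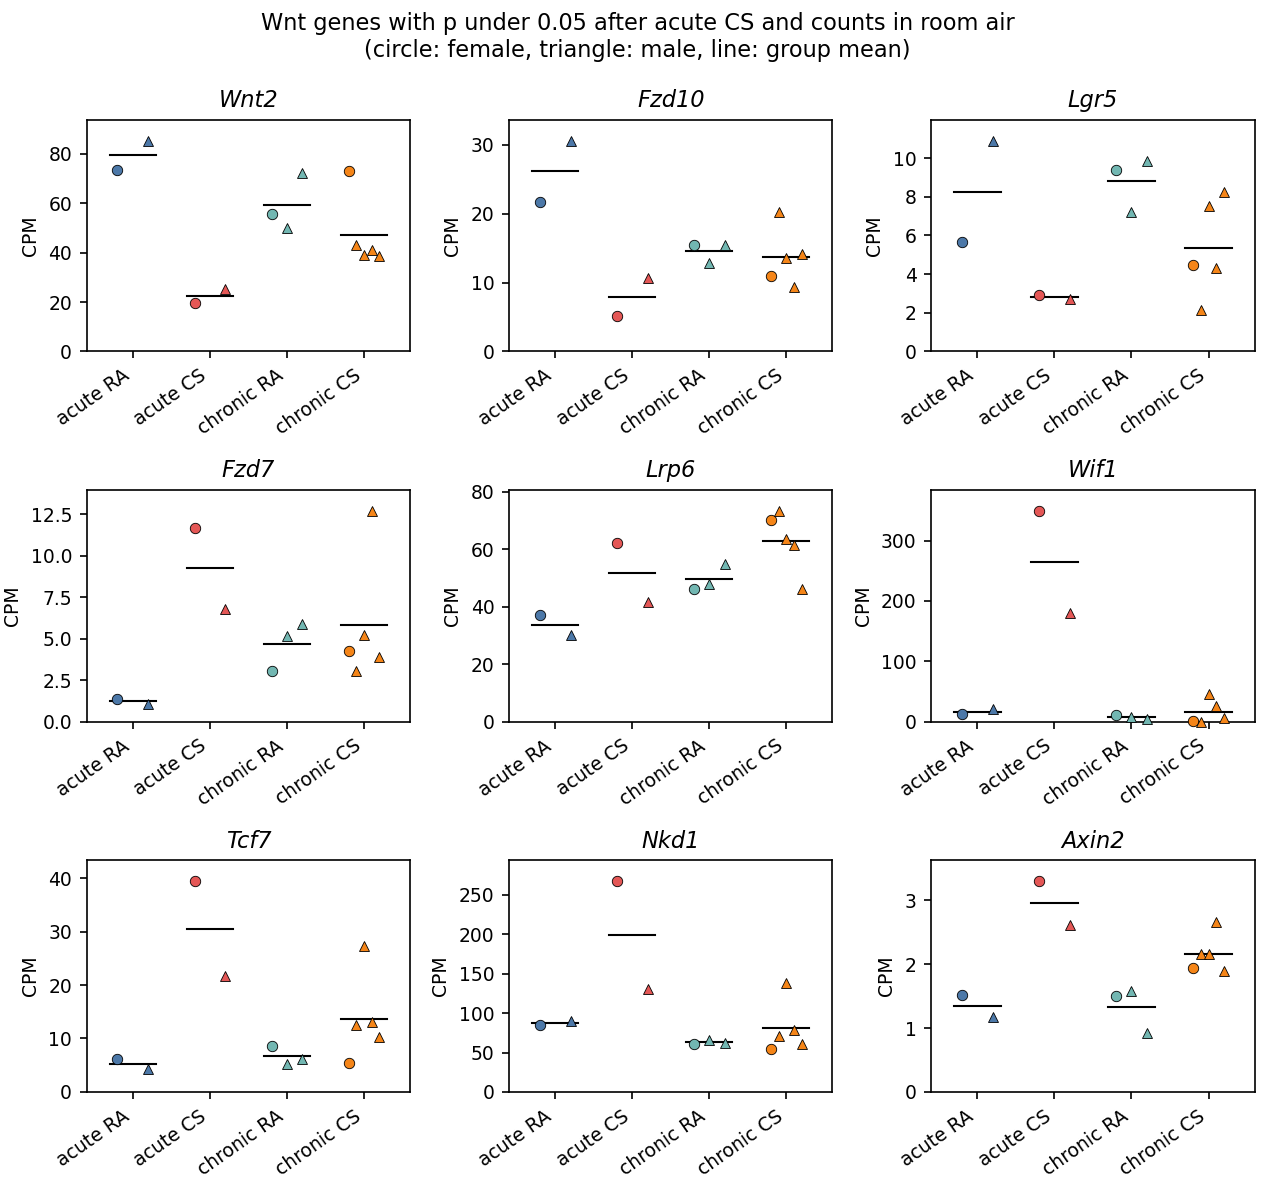
CPM of 9 Wnt genes with an unadjusted p under 0.05 after acute CS, in all 12 libraries. Points are libraries (circles female, triangles male), lines are group means and each axis starts at 0. Wnt2, Fzd10 and Lgr5 have their lowest group mean in acute CS, and Wif1, Tcf7 and Nkd1 are highest in acute CS F, at 349, 39.4 and 267 CPM.

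Markers of other cell types moved in the same libraries. In acute RA and acute CS, 12 markers of blood endothelium summed to 3084 to 3891 and to 6935 to 11159 CPM, and 12 of mesenchyme to 875 to 906 and to 1116 to 1586 CPM. The sums of 10 markers of T and NK cells were 30.9 to 33.4 and 202 to 417 CPM, and those of 10 markers of alveolar macrophages 59.8 to 115 and 1936 to 2019 CPM. Alveolar epithelium (10 markers) summed to 6455 CPM in acute CS F and 227 CPM in acute CS M, on either side of acute RA at 755 to 1074 CPM. Npnt, which led the mesenchymal sum in acute RA, went the other way, from 549 and 548 CPM in acute RA F and M to 207 and 289 CPM in acute CS F and M. In both acute CS libraries 11 of 12 markers of blood endothelium, 11 of 12 of mesenchyme, 10 of 10 of T and NK cells, 10 of 10 of macrophages and 3 of 10 of epithelium lay above acute RA, and none was at 0 throughout a group. The part of these cells in the values of the Wnt genes was not tested.

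Of 59 tested genes from a list of other pathway genes, 2 passed after acute CS, a share near that of all tested genes (3.47%). Nkd2, the paralog of Nkd1, was counted at 4.48 and 2.72 CPM in acute RA F and M, and at 35.6 and 29.3 CPM in acute CS F and M (log2 fold change 3.17, adjusted p = 0.0394 with edgeR). Prickle1, a planar polarity gene, was counted at 68.0 and 53.0 CPM in acute RA F and M, and at 233 and 106 CPM in acute CS F and M (log2 fold change 1.49, adjusted p = 0.0312 with edgeR). The 2 genes that passed were among 17 cytoplasmic genes and 8 planar polarity genes. Among 3 genes of ligand secretion, 16 further extracellular genes, 11 nuclear genes and 4 further targets, 0 passed. At an unadjusted p under 0.05 there were 18 of the 59 (30.5%), against 15.7% of all tested genes, with 12 higher and 6 lower, and the median log2 fold change of the 59 was 0.10. After chronic CS and between the room air groups 0 of the 59 passed in edgeR, with 6 (10.2%) at an unadjusted p under 0.05 in each, against 10.9% and 7.01% of all tested genes.

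After chronic CS no Wnt gene passed the adjusted limit in edgeR, and genes at or near 0 in chronic RA were foremost among those with an unadjusted p under 0.05. With edgeR 0 of 45 passed, as did 0.0% of all tested genes, and DESeq2 called 3 (Wnt3a, Wnt7b and Fzd2). At an unadjusted p under 0.05 in edgeR there were 6 (13.3%), where 10.9% of all tested genes were. All 6 were higher, against a background of 5.57% higher and 5.35% lower. For 3 Wnt genes (6.67%) the groups did not overlap, against 9.41% of all tested genes. These were Fzd2 and Axin2, higher in all 5 CS libraries, and Lrp5, lower in all 5. The median log2 fold change was 0.29 over the Wnt genes and 0.01 over all tested genes. Without chronic CS M2, 0 passed and 4 had an unadjusted p under 0.05.

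Fzd2 (chromosome 11, 102604396 to 102608058), a receptor known from non-canonical signalling, had 0 counts in chronic RA F, M1 and M2. In chronic CS it was counted at 1.16, 2.51, 0.748, 0.879 and 0.181 CPM in F and M1 to M4. All 5 lay above the chronic RA libraries, and their mean was at least 38.3-fold above a floor of 3 counts over the 3 RA libraries. Without M1 this bound was at least 25.9-fold. The exact two-sided permutation test gave p = 0.0179, the smallest that 5 against 3 libraries allow, and the same p for Axin2. The edgeR adjusted p was 0.178, and DESeq2 gave 5.64e-05. Fzd2 was also counted at 0.946 and 1.46 CPM in acute RA F and M, so that chronic RA was the 1 group of 4 without a count.

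Wnt3a and Wnt7b, both ligands of the canonical branch, also had no count in chronic RA. Wnt3a was counted at 0.735, 3.48, 0, 2.08 and 1.13 CPM in chronic CS F and M1 to M4, at least 51.9-fold above the floor on average (edgeR adjusted p = 0.389). Wnt7b was counted at 0, 0.396, 4.07, 0.600 and 0.407 CPM in chronic CS F and M1 to M4, at least 38.3-fold above the floor on average (edgeR adjusted p = 0.357). In each of these genes 1 chronic CS library had no count, and M2 alone held most of the Wnt7b level. Without M2 the bound for Wnt7b was at least 12.3-fold, and without M1 that for Wnt3a was at least 34.5-fold. Wnt4, a ligand with many roles in organ growth, was counted at 1.03, 0.662 and 1.97 CPM in chronic RA F, M1 and M2. In chronic CS it was counted at 1.89, 4.40, 5.11, 4.22 and 2.01 CPM in F and M1 to M4, with 4 of 5 above all RA libraries (log2 fold change 1.53, adjusted p = 0.420 with edgeR, exact permutation p = 0.0536).

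Dkk3, a secreted protein of the Dkk family that is not known to act on Lrp5 or Lrp6 as Dkk1 does, was counted between 6.74 and 19.2 CPM in the chronic RA libraries, highest in F. In chronic CS it was counted at 18.0, 19.0, 14.8, 33.2 and 29.5 CPM in F and M1 to M4 (log2 fold change 0.86, adjusted p = 0.428 with edgeR). The groups overlapped through chronic RA F. Tcf7 was counted at 8.68, 5.24 and 6.20 CPM in chronic RA F, M1 and M2, and at 5.41, 12.5, 27.3, 13.0 and 10.3 CPM in chronic CS F and M1 to M4 (log2 fold change 1.03, adjusted p = 0.448 with edgeR). Chronic CS M2 was highest for Tcf7, for Nkd1 (138 CPM, against 54.3 to 79.0 CPM in the other 4) and for Wif1 (45.3 CPM, against 0 to 26.0 CPM).

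The 3 genes that passed after acute CS had intervals that included 0 after chronic CS. Wnt2 was counted at 55.5, 49.9 and 72.2 CPM in chronic RA F, M1 and M2, and at 73.2, 43.3, 39.2, 40.9 and 38.5 CPM in chronic CS F and M1 to M4. Apart from F, the 4 chronic CS libraries lay below chronic RA. The log2 fold change was -0.33 with a 95% confidence interval from -0.82 to 0.16. For Fzd10 it was -0.09 with an interval from -0.74 to 0.56, and for Fzd7 0.31 with an interval from -0.75 to 1.38. Lrp5 was counted at 37.9, 41.2 and 33.0 CPM in chronic RA F, M1 and M2, and at 28.1, 23.6, 19.3, 32.7 and 26.9 CPM in chronic CS F and M1 to M4, without overlap (log2 fold change -0.52, adjusted p = 0.467 with edgeR). Axin2 was counted between 0.924 and 1.58 CPM in chronic RA, and at 1.94, 2.16, 2.16, 2.66 and 1.90 CPM in chronic CS F and M1 to M4, also without overlap (log2 fold change 0.69, adjusted p = 0.515 with edgeR).

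The 7 lymphatic markers summed to 18668 to 21390 CPM in chronic RA and to 13730 to 20058 CPM in chronic CS, with overlap. Of the 7, 5 had a log2 fold change below 0 (median over the 7 of -0.23), and 1, Flt4, lay below chronic RA in all 5 chronic CS libraries. In chronic RA and chronic CS, 10 alveolar epithelial markers summed to 249 to 469 and to 916 to 4611 CPM, and 12 mesenchymal markers to 419 to 477 and to 569 to 908 CPM. Their sums did not overlap between the groups, and 9 of 10 and 7 of 12 of their genes lay above chronic RA in all 5 chronic CS libraries. The sums for T and NK cells, at 26.0 to 49.4 and 45.2 to 64.8 CPM, overlapped, as did those for blood endothelium, at 3433 to 3699 and 3021 to 4022 CPM. The latter sums were led by Plvap, at 2689 to 2785 CPM in chronic RA and 1704 to 2753 CPM in chronic CS, while 11 of the 12 blood endothelial markers had a log2 fold change above 0 (median 0.71), 5 of them with an unadjusted p under 0.05 as higher. Alveolar macrophages summed to 22.4 to 110 and 66.3 to 393 CPM. For T and NK cells and for macrophages alike, 9 of 10 markers had a log2 fold change above 0, with medians of 0.89 and 2.02, and 4 and 5 of them had an unadjusted p under 0.05 as higher. The part of these cells in the chronic values was not tested.

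**Figure D4:**
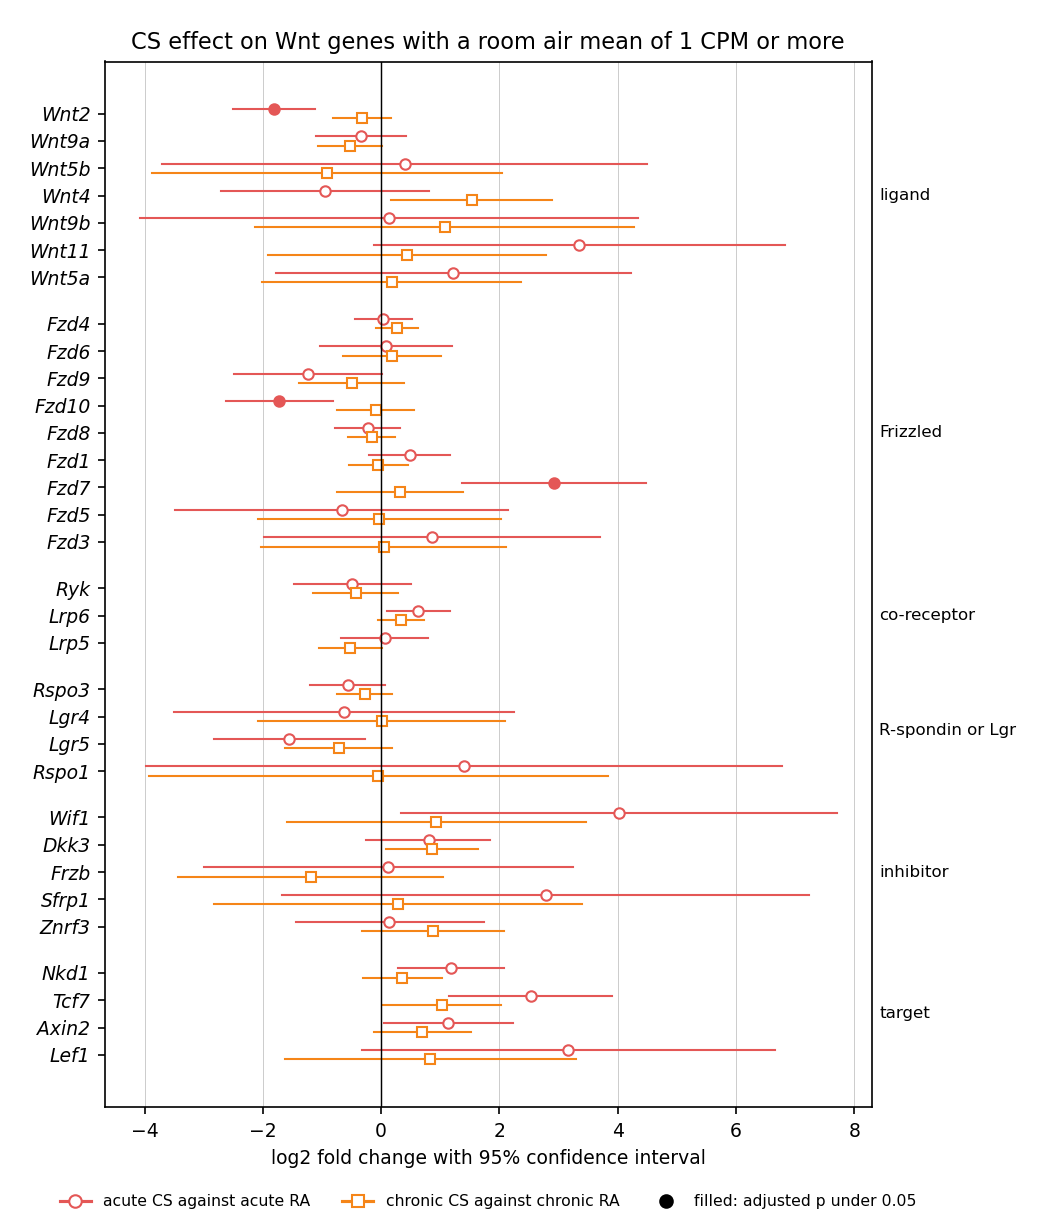
Log2 fold change and 95% confidence interval of the CS effect for the 32 Wnt genes with a room air mean of at least 1 CPM, from edgeR's fit of all 12 libraries. Circles are acute CS against acute RA and squares chronic CS against chronic RA, and filled symbols passed the adjusted limit. Wnt2, Fzd10 and Fzd7 are the filled ones, all acute, and their chronic intervals include 0.

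The acute and chronic effects were compared in the same fit. The difference of the effects passed the adjusted limit for 0 of 45 Wnt genes, where 0.452% of all tested genes passed, and 5 (11.1%) had an unadjusted p under 0.05, against 11.9%. With DESeq2, 4 passed. The difference, acute minus chronic, was -1.48 for Wnt2 (95% confidence interval -2.33 to -0.64, edgeR adjusted p = 0.131), -1.63 for Fzd10 (-2.74 to -0.52, 0.209) and 2.60 for Fzd7 (0.79 to 4.42, 0.216). Fzd2 and Wnt4 were the others. For all 5 genes the acute RA and chronic RA libraries did not overlap, where this held for 34.7% of all tested genes. Both room air groups enter the difference, so that this is partly set by how the 5 genes were picked. For Wnt4 the difference was -2.47 (edgeR adjusted p = 0.357), and it ran from -3.96 to -1.75 over alternative fits. That Wnt2, Fzd10 and Fzd7 passed after acute and not after chronic exposure thus did not amount to a called difference between the exposures in edgeR.

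Between the room air groups, chronic RA and acute RA, 0 of 45 Wnt genes passed in edgeR, as did 0.0% of all tested genes, and DESeq2 called 1 (Fzd2). At an unadjusted p under 0.05 there were 8 (17.8%), where 7.01% of all tested genes were. Of these, 5 were higher and 3 lower in chronic RA, with backgrounds of 4.52% and 2.5%. For 18 Wnt genes (40.0%) the groups did not overlap, against 34.7% of all tested genes. This comparison shares its acute RA libraries with the acute comparison and its chronic RA libraries with the chronic comparison, so that its values are given side by side with those and not as a further result. Age and pooling differ together between the groups and cannot be told apart. With 2 against 3 libraries the exact two-sided permutation test cannot go below p = 0.1.

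The 5 genes that were higher in chronic RA were Wnt9a, Lrp5, Lrp6, Rspo3 and Fzd7. Wnt9a (chromosome 11, 59306928 to 59333552) was counted at 23.8 and 20.7 CPM in acute RA F and M, and at 41.3, 47.6 and 56.1 CPM in chronic RA F, M1 and M2. All 3 lay above both acute libraries, with a log2 fold change of 1.12 (SE 0.33, adjusted p = 0.503 with edgeR). In chronic CS it was counted at 35.3, 21.5, 24.9, 48.3 and 37.9 CPM in F and M1 to M4, overlapping with chronic RA. Lrp5 was counted at 18.8 and 16.8 CPM in acute RA F and M, against 33.0 to 41.2 CPM in chronic RA (log2 fold change 1.07, adjusted p = 0.513 with edgeR). Lrp6 was counted at 46.3, 48.0 and 54.9 CPM in chronic RA F, M1 and M2, against 37.0 and 30.2 CPM in acute RA (log2 fold change 0.57, adjusted p = 0.684 with edgeR). Rspo3 was counted at 41.0 and 44.2 CPM in acute RA F and M, and at 57.8, 64.1 and 71.5 CPM in chronic RA F, M1 and M2 (log2 fold change 0.60, adjusted p = 0.708 with edgeR). None of these groups overlapped.

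Among the receptors, Fzd7 was counted at 3.04, 5.15 and 5.90 CPM in chronic RA F, M1 and M2, above the 1.39 and 1.06 CPM of acute RA (log2 fold change 1.94, adjusted p = 0.592 with edgeR). Fzd10 was counted at 15.4, 12.9 and 15.4 CPM in chronic RA F, M1 and M2, below the 21.7 and 30.6 CPM of acute RA (log2 fold change -0.85, adjusted p = 0.704 with edgeR). Fzd2 was the gene at 0 in chronic RA and was at least 42.0-fold lower there than in acute RA (edgeR adjusted p = 0.215). Wnt4 was counted at 4.49 and 2.97 CPM in acute RA F and M, against 0.662 to 1.97 CPM in chronic RA (log2 fold change -1.61, adjusted p = 0.708 with edgeR). For Wnt2 the log2 fold change was -0.43 with a 95% confidence interval from -1.04 to 0.19. Over the Wnt genes the median log2 fold change was -0.06, and over all tested genes 0.0. The lymphatic markers summed to 13628 and 15421 CPM in acute RA F and M, and to 18668 to 21390 CPM in chronic RA. Of these 7 markers, 5 lay above acute RA and 1, Prox1, below it. Prox1 was counted at 2239 and 2476 CPM in acute RA F and M, and at 2111, 1953 and 1836 CPM in chronic RA F, M1 and M2. The mesenchymal markers summed to 875 to 906 and 419 to 477 CPM. Of these 12 markers, 6 lay below acute RA and 1, Dcn, above it. Npnt fell from 549 and 548 CPM in acute RA F and M to 229 to 273 CPM in chronic RA. The markers of alveolar epithelium summed to 755 to 1074 and 249 to 469 CPM, with 7 of 10 below acute RA in all 3 chronic RA libraries. Their part in these values was not tested.

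**Figure D5:**
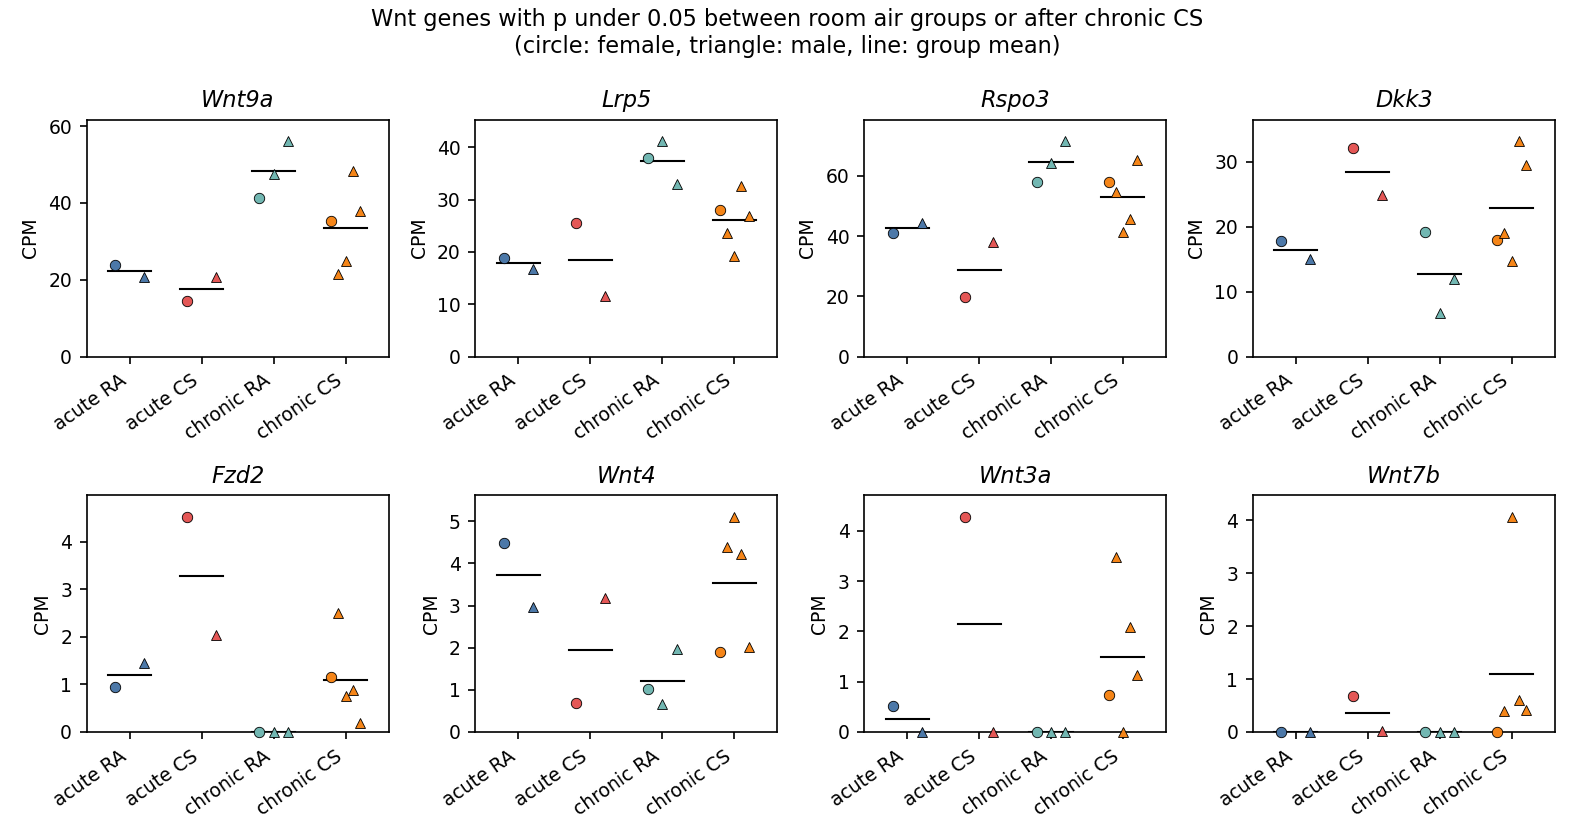
CPM of 8 Wnt genes with an unadjusted p under 0.05 after chronic CS or between the room air groups, in all 12 libraries. Points are libraries (circles female, triangles male), lines are group means and each axis starts at 0. Wnt9a, Lrp5 and Rspo3 are higher in all 3 chronic RA libraries than in both acute RA libraries, and Fzd2 is at 0 in chronic RA alone.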

How the data were processed

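RNA of sorted lung LECs was sequenced in 12 libraries after SMART-Seq v4 amplification. The deposited values are whole-number counts per Ensembl gene, without normalization, which the authors made by quality control with FastQC 0.11.9 and the DEE2 workflow (trimming with Skewer, adapter search with Minion, alignment to GRCm38 and counting with STAR in its GeneCounts mode). The annotation release, strand setting and STAR version are not given in the sources used here. Groups, sex and number came from the labels, and times of exposure from the study's methods.

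Here edgeR 4.0.16 in R 4.3.3 fitted all libraries by group (TMM factors, filterByExpr, 21440 genes tested, quasi-likelihood F-test, Benjamini-Hochberg limit 0.05). CPM use library size times TMM factor (0.944 to 1.05), and FPKM also the union of GENCODE M21 exons. For single genes, exact two-sided permutation tests compared mean log2 CPM with a prior count of 2. Libraries of different sex come from different mice, but nothing says whether chronic libraries of the same sex do, so p-values measure the spread between these samples. No pair of libraries was a duplicate. Python 3.11.15, pandas 2.3.3 and matplotlib 3.10.9 made tables and plots. Identifiers missing from GENCODE M21 (147) held at most 0.011% of counts. The method was tested on simulated counts.

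The Wnt genes and lists were chosen with earlier results of these data known. Genes were named with every library's value where their unadjusted p was under 0.05 in a comparison, and for level where they led their role in room air FPKM. Other pathway genes past the adjusted limit were named, and Lef1, Fzd4, Fzd6, Lrp5 and Axin2 in further comparisons were chosen after their values were seen. Alternatives were DESeq2 1.42.0, library size, no filter, only the groups compared, sex, a replicate block, robust estimation, leaving out each library, and chronic CS by depth. Lower bounds on folds with a smoke library left out were added after seeing the data.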

Additional observations from a re-analysis of the deposited data

Results flagged for a closer look

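In chronic CS, the group of 5 libraries, 1 library lay far from the other 4 for 11 of the 45 Wnt genes tested, by the gap to its nearest neighbour as a share of the whole range of CPM. Chance flags about 1 in 20 groups at this limit, but that rate does not hold for genes at 0 in 4 of the 5 libraries, where the share is 1.0 by construction (Wnt6, Rspo2 and Rnf43).

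For 5 of these genes the library was M2, the one with the most genes at 0. It had no count of Fzd3 (0.805 of the range, the others 2.55 to 6.67 CPM), Fzd5 (0.835, the others 1.35 to 2.65 CPM), Wnt5a (0.793, the others 1.47 to 3.62 CPM) and Frzb (0.774, the others 1.50 to 4.14 CPM). It had the most Znrf3, a ubiquitin ligase that removes Frizzled receptors, at 13.1 CPM against 3.21 to 4.67 CPM (0.735).

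Wnt2 was highest in F, at 73.2 CPM against 38.5 to 43.3 CPM (0.818). Fzd4 was lowest in M1, at 203 CPM against 307 to 356 CPM (0.736). The remaining genes were at or near 0 in the other 4 libraries. Rspo2 had 2.91 CPM in M1 alone (1.0) and Rnf43 2.40 CPM in M3 alone (1.0), with the other 4 libraries at 0. Wnt6 had 0.193 CPM in M3 (1.0), again with the others at 0. Wnt10b had 0.610 CPM in M4 against 0 to 0.0429 CPM (0.763).

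For Wnt4, both acute CS libraries lay below the mean log2 CPM of acute RA and all 5 chronic CS libraries above that of chronic RA, and the acute minus the chronic difference was -2.77. The acute groups overlapped, and the acute log2 fold change of -0.95 had a 95% confidence interval from -2.70 to 0.81. The fitted difference of -2.47 had an unadjusted p = 0.032 and an adjusted p = 0.357 in edgeR, and did not pass. Over alternative fits this difference ran from -3.96 to -1.75.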

How the results depend on the processing

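After acute CS, 3 Wnt genes were called. DESeq2 called 5, adding Tcf7 and Nkd1, and edgeR without the filter on low counts called 4, adding Tcf7 (adjusted p = 0.0288), while 0 were called with only the groups compared and 0 with the replicate block. Leaving out 1 library gave between 0 and 2, and without acute CS M these were Wnt2 and Fzd10. Fzd10 was lost with library size in place of TMM factors (adjusted p = 0.0535), and Fzd7 with sex as a covariate (0.0701) or robust estimation (0.0511). DESeq2 called 3 Wnt genes after chronic CS (Wnt3a, Wnt7b and Fzd2), 1 between the room air groups (Fzd2) and 4 in the difference of effects (Wnt2, Fzd2, Fzd7 and Fzd10), where edgeR called 0. The cause was not tested.

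Over 30 gene results and 417 alternative values, 0 changed direction, 387 kept their side of the limit, 19 lost it (all of Wnt2, Fzd10 or Fzd7 after acute CS) and 11 gained it. After acute CS the call was kept in 6 of 11 alternatives for Wnt2, 5 of 11 for Fzd10 and 3 of 11 for Fzd7. The rest of the 387 belong to results not called in the main fit, which stayed uncalled. The 30 results were picked by an unadjusted p under 0.05 in the same libraries, which makes a change of direction unlikely in advance. Deviations from the group means were weakly correlated between libraries that share a sex and number (-0.04 to 0.07). With 2 libraries a group the acute values are 1 number with either sign, so that this check cannot tell whether samples were paired. With the replicate block the edgeR adjusted p after acute CS was 0.0735 for Wnt2 and 0.0876 for Fzd7, and Fzd10 missed the limit as well. A single left-out library leaves an acute group with 1 library, which is then assumed to vary like the others. Genes under 1 CPM rest on few counts, and at these depths a value of 0 allows up to 3 counts.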

Other observations

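Related to Prox1, whose counts were lower in acute CS, some of the abundant genes were higher in acute CS, unlike Wnt2 and Fzd10. Fzd4 had 14.8 and 11.8 counts per 100 counts of Prox1 in acute RA F and M, and 32.0 and 24.3 in acute CS F and M. Fzd6 had 4.89 and 4.11 in acute RA F and M, and 10.4 and 9.14 in acute CS F and M. Both genes thus did not overlap between the groups on this scale, while their CPM differed little. Wnt9a had 1.06 and 0.835 in acute RA F and M, and 1.38 and 1.64 in acute CS F and M, and Rspo3 had 1.83 and 1.79 against 1.89 and 3.01, both lower in acute CS F by CPM. For Fzd9 the groups overlapped on this scale. The ratio depends on Prox1 in the same libraries, and it was not tested.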
